A study of Raphanus sativus with 8 samples.

Results

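FLOWERING LOCUS C (FLC, AT5G10140) and the related genes MADS AFFECTING FLOWERING 1 to 5 (MAF1, AT1G77080; MAF2, AT5G65050; MAF3, AT5G65060; MAF4, AT5G65070; MAF5, AT5G65080) were examined in the radish shoot transcriptome. The members were all radish unigenes, that is assembled transcript sequences, whose Arabidopsis match in the deposited annotation was 1 of these 6 loci. They numbered 11 of 78395 unigenes and covered 3 of the 6 loci, with 8 unigenes for FLC, 1 for MAF3 and 2 for MAF4. MAF1, MAF2 and MAF5 were the best match of 0 unigenes and were not analysed here. Names follow the best Arabidopsis match, and the radish gene that the study calls MAF2 may be among the unigenes matched here to MAF3 or MAF4.

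Shoots of the late-bolting inbred line NH-JS1 and the early-bolting inbred line NH-JS2 were compared with and without gibberellic acid (GA), a hormone that promotes stem elongation. All plants of all 4 groups had been vernalized (kept cold) for 10 days and then grown for 14 days. In NH-JS1_GA and NH-JS2_GA the leaves were sprayed with 10 mM GA, and shoots were collected 6 days later, while NH-JS1 and NH-JS2 received no GA. Each group had 2 libraries, each made from pooled shoots of 3 plants, so all values rest on n = 2 pools. The p-values rest on the spread between such pools, estimated over all groups together and drawn toward that of other unigenes. The labels place the shoots without GA at vegetative growth and the shoots with GA at bolting, in both lines alike. The paper reports, however, that NH-JS1 plants given this treatment had not bolted at a later day than this sampling. The label is therefore not a record that the NH-JS1_GA shoots had bolted. No group lacked vernalization, so the response of these genes to cold cannot be read from these data.

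FLC and the MAF proteins are MADS-domain transcription factors that delay flowering in Arabidopsis. FLC binds and represses the floral promoters FT and SOC1, and does so in complexes with the MADS protein SVP. FRIGIDA and its partners raise FLC transcription, whereas prolonged cold silences FLC through VIN3-type proteins and the Polycomb complex, and the autonomous pathway keeps it low without cold. MAF1 to MAF5 are close relatives of FLC, and several of them also act with SVP.

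Counts of reads per unigene were scaled to a common library size, and these scaled counts are the levels given below. A unigene was called where the adjusted p of edgeR's quasi-likelihood test was at most 0.05, and called a DEG where in addition the study's criteria were met (0.6 or more in absolute log2 fold change, 0.01 or less in adjusted p, and a group mean of 500 or more scaled counts). All 11 members passed the filter on low counts, as did 65934 unigenes in all. Library totals ranged from 23757588 to 34165272 counts. The members together took between 0.0135% and 0.0257% of a library. Unigene lengths were not used, so levels are compared between groups for 1 unigene and not between unigenes.

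Among the markers checked, the green shoot marker LHCB3 stood at 19823 to 26530 scaled counts in all 8 libraries, and the other 2 shoot markers (RBCS1A and LHCB1.1) were the match of 0 unigenes. None of the 5 root markers was the match of a unigene. Of 6 floral markers, AG and SEP3 had unigenes. Their summed level was 23.3 to 30.1 scaled counts for NH-JS1, 35.0 to 36.7 for NH-JS1_GA, 238 to 265 for NH-JS2 and 326 to 333 for NH-JS2_GA. AG alone ranged from 9.17 to 21.0 over all libraries. SEP3, a floral organ identity gene, therefore moved with the line, from 13.7 to 20.8 in the 4 NH-JS1 libraries to between 226 and 323 in the 4 NH-JS2 libraries, and its part in the differences below was not tested.

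The FLC unigenes had 4 different best protein matches. TBIU004737 matched the Brassica rapa protein Bra009055 at 96.43% identity. TBIU041406, TBIU041409 and TBIU041410 matched Bra028599 at 96.53%, 86.39% and 95.29%. TBIU041407 and TBIU041408, which lie between them in the numbering, matched 1 Arabidopsis lyrata protein at 95.29%. TBIU069214 also matched Bra028599, at 91.23%, and TBIU055229 matched Bra006051 at 91.53%.

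The 5 consecutive unigenes TBIU041406 to TBIU041410 had nearly the same counts in each library. Within a library the highest of the 5 counts was at most 1.12 times the lowest, and their coefficient of variation ranged from 1.89% to 4.78%, against 3.26% to 5.31% from counting alone. A chi-square over the 5 unigenes and 8 libraries was 3.34 on 28 degrees of freedom, so they differed by less than sampling noise. They may divide or share the same reads, and they are described below through TBIU041410, the highest. Counts of members are therefore given both for 11 unigenes and with these 5 counted as 1, a choice made after the data were seen.

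FLC levels were lower in the early-bolting line. TBIU041410 stood at 819 and 842 scaled counts in the NH-JS1 pools, 699 and 718 with GA, 591 and 496 in the NH-JS2 pools, and 461 and 423 there with GA. No group overlapped another, and the means descended from NH-JS1 (831 ± 15.7, SD, n = 2) through NH-JS1_GA (709 ± 13.9) and NH-JS2 (543 ± 66.8) to NH-JS2_GA (442 ± 26.9). Between the lines its log2 fold change was -0.61 ± 0.11 (SE) without GA (adjusted p = 0.00318, edgeR) and -0.68 ± 0.11 with GA (adjusted p = 0.00181, edgeR). Here, as in every bulk sample below, fewer cells of a type and less RNA per cell cannot be told apart. The other 4 of these unigenes ranged from 748 to 825 scaled counts in NH-JS1, 638 to 702 in NH-JS1_GA, 474 to 587 in NH-JS2 and 399 to 466 in NH-JS2_GA. Their log2 fold changes between the lines ranged from -0.59 to -0.55 without GA and from -0.65 to -0.57 with GA. All 5 were called in both comparisons, and no alternative processing or omitted library removed any of these calls.

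TBIU004737, the FLC unigene with the most counts, differed between the lines less without GA. It stood at 1858 and 1528 scaled counts in the NH-JS1 pools, 1606 and 1775 with GA, 1547 and 1265 in the NH-JS2 pools, and 1116 and 1097 there with GA. The NH-JS1 and NH-JS2 libraries overlapped, whereas both NH-JS2_GA libraries lay below all others. The log2 fold change between the lines was -0.27 ± 0.14 without GA (adjusted p = 0.189, edgeR), which was not called, and -0.61 ± 0.14 with GA (adjusted p = 0.0102, edgeR), which was. That the GA effect differed between the lines was not shown, since the difference was -0.34 ± 0.20 with an adjusted p of 1.00 by edgeR. The call with GA was lost without NH-JS1_GA replicate 2 (-0.53, adjusted p = 0.0626, edgeR), without NH-JS2_GA replicate 1 (-0.61, 0.0587) and without NH-JS2_GA replicate 2 (-0.60, 0.0703).

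TBIU055229 had the largest differences between the lines among the FLC unigenes, and the widest spread between the NH-JS1 pools. Its scaled counts were 528 and 881 in the NH-JS1 pools, 462 and 503 with GA, 445 and 322 in the NH-JS2 pools, and 260 and 258 there with GA. The 2 NH-JS1 pools differed by 1.67 times, where the median unigene differed by 1.1 times in that group, and no group overlapped another. NH-JS2 vs. NH-JS1 gave -0.87 ± 0.23 without GA (adjusted p = 0.0209, edgeR) and -0.90 ± 0.24 with GA (adjusted p = 0.0212, edgeR). Without GA the call was lost when NH-JS1 replicate 2 was left out (-0.46, adjusted p = 0.154, edgeR) or NH-JS2 replicate 2 (-0.67, 0.102), and when only the libraries without GA were fitted (-0.87, 0.0587). With GA it was lost when any 1 of the 4 GA libraries was left out: -0.95 without NH-JS1_GA replicate 1 (adjusted p = 0.0637, edgeR), -0.83 without its replicate 2 (0.0988), -0.89 without NH-JS2_GA replicate 1 (0.0988) and -0.89 without its replicate 2 (0.104).

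TBIU069214 separated the lines without any order by GA. It stood at 268 and 274 scaled counts in the NH-JS1 pools, 244 and 274 with GA, 189 and 126 in the NH-JS2 pools, and 157 and 182 there with GA. All 4 NH-JS2 libraries lay below all 4 NH-JS1 libraries, and within each line the libraries with and without GA overlapped. The log2 fold change between the lines was -0.77 ± 0.18 without GA (adjusted p = 0.0122, edgeR) and -0.61 ± 0.18 with GA (adjusted p = 0.0330, edgeR). The call without GA was lost without NH-JS1 replicate 1 (-0.79, adjusted p = 0.0541, edgeR) or NH-JS1 replicate 2 (-0.76, 0.0644). The call with GA was lost with DESeq2 (-0.61, adjusted p = 0.0566) and when any NH-JS1, NH-JS1_GA or NH-JS2_GA library was left out, where the adjusted p of edgeR was 0.0628 without NH-JS1 replicate 1, 0.0627 without NH-JS1 replicate 2, 0.0719 without NH-JS1_GA replicate 1, 0.157 without NH-JS1_GA replicate 2, 0.184 without NH-JS2_GA replicate 1 and 0.0742 without NH-JS2_GA replicate 2.

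**Figure D1:**
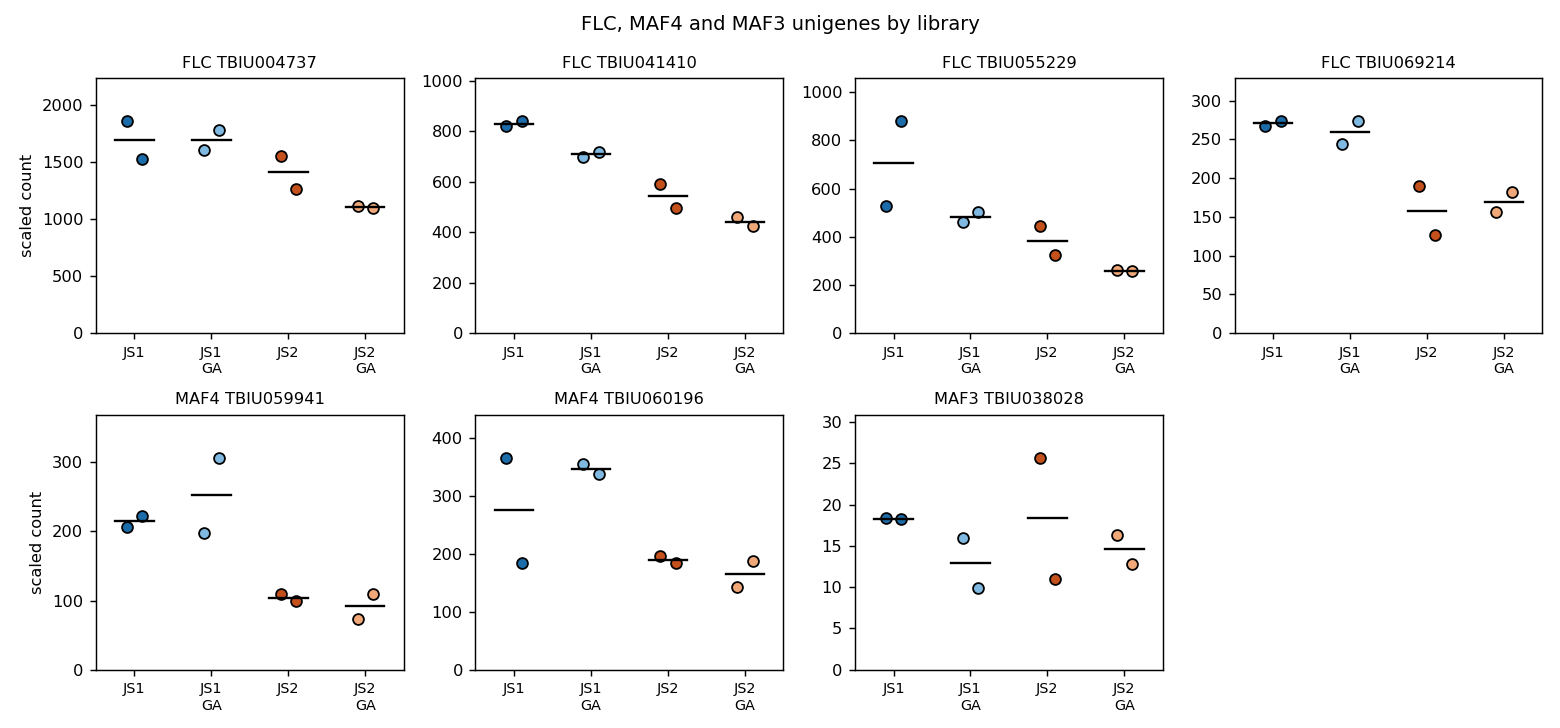
Scaled counts (vertical axes, each from 0) of 7 FLC, MAF4 and MAF3 unigenes in the 8 libraries, with TBIU041410 shown for its 5 near-identical unigenes. Points are libraries and bars are means of 2. For TBIU041410 the groups descend from 831 in NH-JS1 to 442 in NH-JS2_GA without overlap, and MAF3 stays below 26 throughout.

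MAF4 was also lower in NH-JS2, with larger fold changes than FLC in the unigene TBIU059941. This unigene matched Bra024351 at 84.29% identity. Its scaled counts were 207 and 222 in the NH-JS1 pools, 198 and 307 with GA, 109 and 98.7 in the NH-JS2 pools, and 73.8 and 110 there with GA. All 4 NH-JS2 libraries lay below all 4 NH-JS1 libraries. NH-JS2 vs. NH-JS1 gave -1.04 ± 0.24 without GA (adjusted p = 0.0110, edgeR), 2.06 times lower, and -1.45 ± 0.24 with GA (adjusted p = 0.00180, edgeR), 2.74 times lower. The call without GA was lost without NH-JS1 replicate 2 (-0.99, adjusted p = 0.0599, edgeR), and the call with GA held under every alternative tried.

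The second MAF4 unigene, TBIU060196, was less even between pools. Its best match was a Thellungiella halophila protein at 77.5% identity, the lowest of the members. It stood at 366 and 183 scaled counts in the NH-JS1 pools, 355 and 337 with GA, 195 and 184 in the NH-JS2 pools, and 143 and 187 there with GA. One NH-JS1 pool lay at the level of NH-JS1_GA and the other at the level of NH-JS2, a ratio of 1.99 between pools of 1 group. The log2 fold change between the lines was -0.54 ± 0.28 without GA (adjusted p = 0.192, edgeR). Leaving out NH-JS1 replicate 2 gave -0.95 (adjusted p = 0.00797, edgeR) and leaving out NH-JS1 replicate 1 gave 0.04, so this value rested on which NH-JS1 pool was used. With GA it was -1.07 ± 0.28 (adjusted p = 0.0199, edgeR), and this call was lost without NH-JS1_GA replicate 1 (-1.02, adjusted p = 0.0829, edgeR), NH-JS1_GA replicate 2 (-1.10, 0.0635) or NH-JS2_GA replicate 1 (-0.88, 0.129).

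MAF3 was measured at only a few reads. TBIU038028, which matched a Brassica rapa protein at 90.24%, had raw counts of 8 to 25 per library. Its scaled counts were 18.3 and 18.3 in the NH-JS1 pools, 16.0 and 9.92 with GA, 25.7 and 11 in the NH-JS2 pools, and 16.4 and 12.8 there with GA. The lines overlapped both without and with GA, and the log2 fold changes were 0.06 ± 0.38 and 0.16 ± 0.42 (adjusted p = 0.930 and 0.819, edgeR). A difference was not detectable at this depth.

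Between the lines without GA, 8 of the 11 members were called, all lower in NH-JS2, against 14.8% of all unigenes called lower, 15.4% called higher and 30.2% called in either direction. With the 5 near-identical unigenes counted as 1, 4 of 7 were called. The members not called were TBIU004737, TBIU060196 and the MAF3 unigene. The median log2 fold change of the members was -0.58, beside 0.00 over all unigenes tested. Libraries of the lines did not overlap, with NH-JS2 lower, for 8 members (4 of 7 with the 5 counted as 1), beside 32.4% of all unigenes. Only TBIU041410 was a DEG, beside 1.37% of all unigenes that were DEGs lower in NH-JS2; the count was 0 without NH-JS1 replicate 2 or NH-JS2 replicate 2 and 5 without NH-JS2 replicate 1.

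With GA, 10 of the 11 members were called, all but MAF3 and each lower in NH-JS2_GA, beside 14.3% of all unigenes called lower, 14.4% called higher and 28.7% called in either direction. With the 5 counted as 1, 6 of 7 were called. The median log2 fold change was -0.64 for the members and -0.01 over all unigenes. The libraries of 10 members (6 of 7) did not overlap, beside 32.4% of all unigenes. The number called was 6 without NH-JS1_GA replicate 2, 6 without NH-JS2_GA replicate 1, and 7 without NH-JS1_GA replicate 1 or NH-JS2_GA replicate 2. The DEGs were TBIU041406, TBIU041407, TBIU041409 and TBIU041410 (1 of 7 with the 5 counted as 1), beside 1.26% of all unigenes, and each of the 4 GA libraries, left out, reduced this count to 0.

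Counts summed over the unigenes of a locus gave FLC at 6578 and 6688 in the NH-JS1 pools, 5658 and 5953 with GA, 5037 and 4146 in the NH-JS2 pools, and 3794 and 3631 there with GA, in scaled counts. These groups did not overlap. Summed FLC was 1.47 times lower in NH-JS2 without GA (log2 fold change -0.56 ± 0.12, adjusted p = 0.00767, edgeR) and 1.58 times lower with GA (-0.66 ± 0.12, adjusted p = 0.00328, edgeR). The near-identical FLC unigenes may share reads, and each entered this sum, so their signal weighs repeatedly in it. With TBIU041410 alone standing for them, the sum was 3473 and 3524 in the NH-JS1 pools and 3011 and 3271 with GA. It was 2772 and 2209 in the NH-JS2 pools, and 1994 and 1960.5 there with GA. These groups did not overlap either, and this smaller sum was not tested. Summed MAF4 was 573 and 405 in the NH-JS1 pools, 554 and 644 with GA, 305 and 282 in the NH-JS2 pools, and 217 and 297 there with GA, and all 4 NH-JS2 libraries lay below all 4 NH-JS1 libraries. It was 1.70 times lower without GA (-0.76 ± 0.21, adjusted p = 0.0219, edgeR) and 2.36 times lower with GA (-1.24 ± 0.21, adjusted p = 0.00213, edgeR). These p-values were adjusted over 26955 loci and unmatched unigenes.

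**Figure D2:**
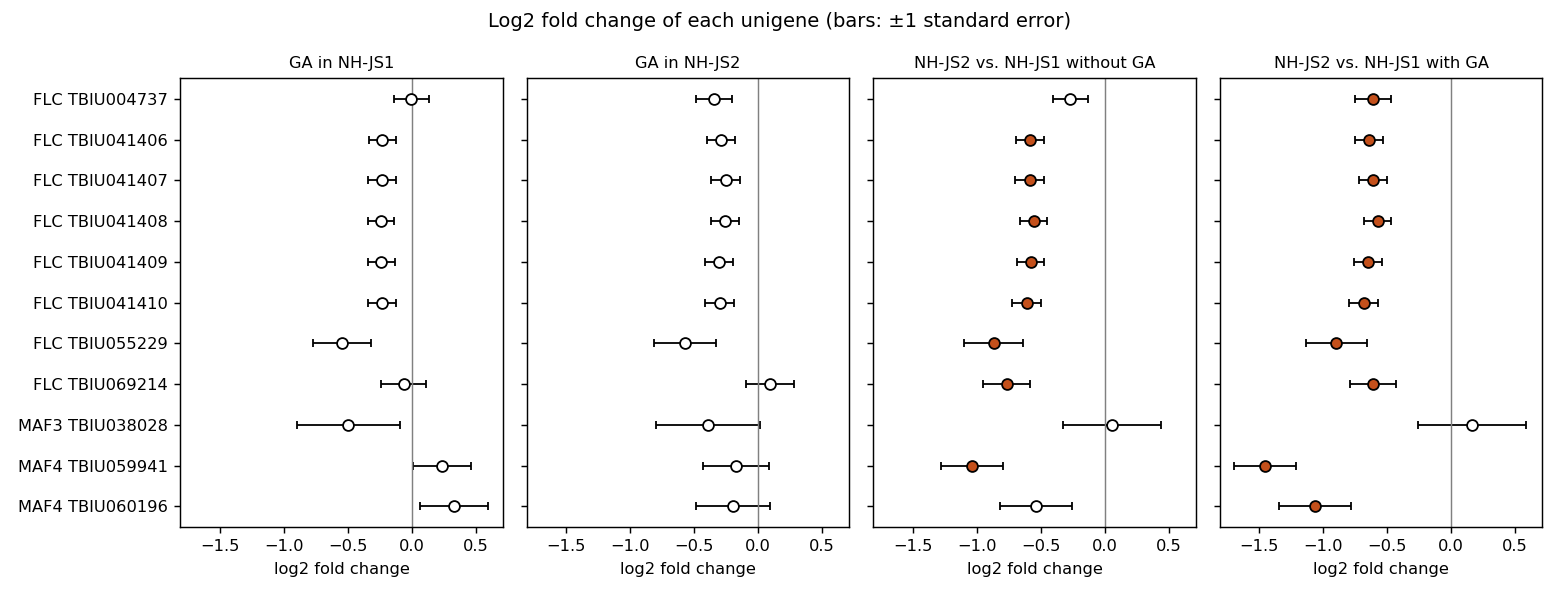
Log2 fold change (horizontal axes) of the 11 unigenes in the 4 comparisons, with bars of ±1 standard error and filled points where the adjusted p was at most 0.05. In the comparisons of the lines 8 and 10 points are filled, all left of 0, and in the comparisons of GA 0 are filled.

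GA itself changed no member past the threshold. In NH-JS1, 0 of 11 members were called by edgeR and 0 by DESeq2, beside 0.0819% of all unigenes called in either direction by edgeR. In NH-JS2 the counts were 0 and 0 as well, beside 0.0637%. At an unadjusted p under 0.05, 2 members were lower in NH-JS1_GA (TBIU041408 and TBIU055229), beside 4.75% of all unigenes, and 6 were lower in NH-JS2_GA (TBIU004737, TBIU041406, TBIU041408, TBIU041409, TBIU041410 and TBIU055229), beside 5.03%. With the 5 near-identical unigenes counted as 1 these were 1 and 3 of 7. For GA in NH-JS1 the log2 fold changes of the members lay between -0.54 and 0.33, and for GA in NH-JS2 between -0.57 and 0.09, with medians of -0.23 and -0.29, and the median over all unigenes was 0.00 and -0.01.

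Although not called, the 5 near-identical FLC unigenes and TBIU055229 had lower values with GA in both lines. TBIU004737 and TBIU069214 had values near 0 in at least 1 line. TBIU041410 had -0.23 ± 0.11 in NH-JS1 and -0.30 ± 0.11 in NH-JS2, and TBIU055229 had -0.54 ± 0.23 and -0.57 ± 0.24. TBIU004737 had 0.00 ± 0.14 in NH-JS1 and -0.35 ± 0.14 in NH-JS2. TBIU069214 had -0.06 ± 0.17 and 0.09 ± 0.19. The libraries with GA lay below those without, with no overlap, for 7 of 11 members in NH-JS1, beside 22.1% of all unigenes, and for 7 of 11 in NH-JS2, beside 19.7%. In both lines these included the 5 near-identical unigenes and TBIU055229. The seventh was the MAF3 unigene in NH-JS1 and TBIU004737 in NH-JS2, and the count was 3 of 7 in each line with the 5 counted as 1.

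The MAF4 unigenes had opposite signs in the lines, none of them called. TBIU059941 had 0.24 ± 0.22 with GA in NH-JS1 and -0.18 ± 0.26 in NH-JS2, and TBIU060196 had 0.33 ± 0.27 and -0.20 ± 0.29. For both, libraries with and without GA overlapped in each line, so neither value exceeded the spread between pools. Summed by locus, FLC had -0.18 ± 0.12 in NH-JS1 (adjusted p = 0.762, edgeR) and -0.29 ± 0.12 in NH-JS2 (adjusted p = 0.547, edgeR), and MAF4 had 0.30 ± 0.20 and -0.17 ± 0.21 (adjusted p = 0.766 and 0.873, edgeR). The FLC sum again includes each of the near-identical unigenes.

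Averaged over the lines, 0 of 11 members were called for GA by edgeR or by DESeq2, beside 0.152% of all unigenes by edgeR. At an unadjusted p under 0.05, 6 were lower (the 5 near-identical unigenes and TBIU055229, or 2 of 7 with the 5 counted as 1), beside 7.20% of all unigenes. When the GA effect of NH-JS2 was set against that of NH-JS1, 0 were called by edgeR or by DESeq2, beside 0.0592%, and 0 had an unadjusted p under 0.05, beside 4.22% in either direction. The largest differences were those of the MAF4 unigenes, at -0.53 ± 0.40 for TBIU060196 and -0.41 ± 0.34 for TBIU059941.

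Across the 4 groups, 7 members had means in the order NH-JS1, NH-JS1_GA, NH-JS2, NH-JS2_GA, from highest to lowest, beside 8.82% of all unigenes. All 7 were FLC unigenes, and 5 of them were the near-identical ones. For 6 of the 7 each neighbouring pair of groups was apart, and for TBIU004737 NH-JS1 and NH-JS1_GA overlapped. NH-JS2_GA was the lowest group for 9 members, beside 23.3% of all unigenes. For 8 members all 4 NH-JS2 libraries lay below all 4 NH-JS1 libraries, beside 19.6%. With the 5 counted as 1, these 3 counts were 3, 5 and 4 of 7. Relative to the mean of NH-JS1, NH-JS2_GA stood at 65.3% for TBIU004737, 53.2% for TBIU041410, 36.8% for TBIU055229, 62.6% for TBIU069214, 42.9% for TBIU059941 and 60.1% for TBIU060196.

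In the division of FLC counts among its unigenes, NH-JS1 replicate 2 stood apart for TBIU004737 and TBIU055229. TBIU004737 took 28.2% of the FLC counts in NH-JS1 replicate 1 (95% Wilson interval 27.3% to 29.3%, counting error only), 28.4% and 29.8% in NH-JS1_GA, and 29.4% to 30.7% in the 4 NH-JS2 libraries. In NH-JS1 replicate 2 it took 22.8% (21.9% to 23.8%), and there TBIU055229 took 13.2% against 6.86% to 8.84% in the other 7 libraries. Each of the 5 near-identical unigenes took between 10.7% and 12.6%, and TBIU069214 between 3.04% in NH-JS2 replicate 2 (2.49% to 3.72%) and 5.02% in NH-JS2_GA replicate 2 (4.38% to 5.74%). For TBIU055229 the extremes of the other 7 libraries were 8.84% in NH-JS2 replicate 1 (8.08% to 9.67%) and 6.86% in NH-JS2_GA replicate 1 (6.09% to 7.72%). The FLC intervals treat all FLC counts as separate reads. The near-identical unigenes may share reads, so these intervals may be too narrow. NH-JS1 replicate 2 was also the lower pool for the MAF4 unigene TBIU060196, which took 45.3% of the MAF4 counts there (40.7% to 49.9%) and 52.4% to 66.0% in the other libraries. With TBIU041410 standing for the 5 near-identical unigenes, TBIU004737 took 43.4% to 54.3% of FLC counts in the NH-JS1 libraries and 55.8% to 57.3% in the NH-JS2 libraries. The sources used here do not state how reads matching several unigenes were assigned, so these are shares of reads as assigned.

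**Figure D3:**
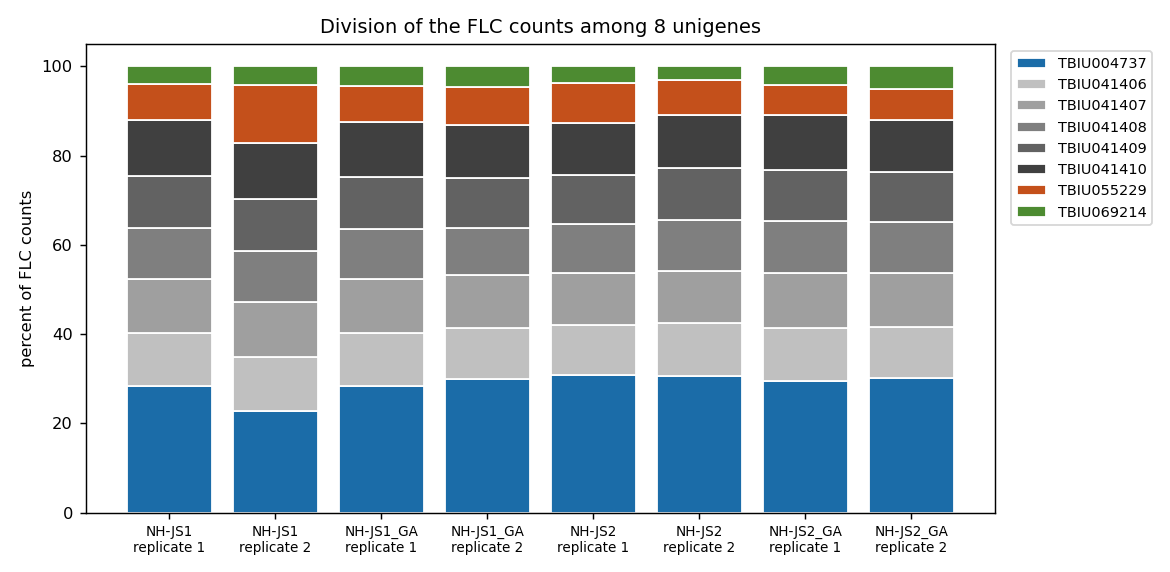
Percent of the FLC counts (vertical axis) assigned to each of 8 unigenes in the 8 libraries (horizontal axis), with the 5 near-identical unigenes in grey. NH-JS1 replicate 2 has the lowest share of TBIU004737, 22.8%, and the highest of TBIU055229, 13.2%.

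Across the 8 libraries the FLC unigenes followed each other, and MAF3 followed none. Pearson's r of log2 CPM (counts scaled to library size) with TBIU041410 was 0.90 for TBIU004737, 0.93 for TBIU055229, 0.86 for TBIU069214, 0.85 for TBIU059941, 0.65 for TBIU060196 and 0.25 for TBIU038028. The lowest r between FLC unigenes was 0.76, for TBIU004737 and TBIU055229. TBIU069214 had its highest r, 0.90, with the MAF4 unigene TBIU059941. The 2 MAF4 unigenes had an r of 0.78 with each other. These points share the 4 groups and the 2 lines, so the values are descriptive.

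Outside the members, the unigenes most like TBIU004737 over the 8 libraries matched AT3G06020 (r = 0.99), RUXF, a small nuclear ribonucleoprotein (0.98), SMT1, a sterol methyltransferase (0.97), AT5G44720 (0.97) and AT3G22470 (0.97). There were 29 unigenes with an r above 0.95. RUXF stood at 561 ± 42.9 scaled counts in NH-JS1 and 332 ± 23.6 in NH-JS2_GA (SD, n = 2). Those most like TBIU060196 matched EMB2016 (0.98), AT3G24255 (0.98), the kinase CRLK1 (0.97), AT1G52420 (0.97) and AT1G43730 (0.96), out of 12 above 0.95. All 5 were lower in NH-JS1 replicate 2 than in replicate 1, as was TBIU060196 (183 and 366 scaled counts), and AT1G43730 stood at 9.13 and 168. Levels were low for EMB2016 (6.15 to 15.0) and AT3G24255 (8.20 to 23.0).

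The genes that raise FLC in Arabidopsis did not move in 1 direction. Of 69 unigenes tested from 18 loci, 13 were called higher and 4 lower in NH-JS2 without GA, and 11 higher and 8 lower with GA. The shares called, 24.6% and 27.5%, were near the 30.2% and 28.7% of all unigenes. DESeq2 called 10 higher and 4 lower without GA and 5 higher and 4 lower with GA. The 4 lower ones without GA were all unigenes of FLX, a component of the FRIGIDA complex, at -1.61 to -1.47 (TBIU032932, TBIU032931, TBIU072679 and TBIU072680), and with GA they had -1.59 to -1.35. TBIU032932 stood at 239 and 248 scaled counts in the NH-JS1 pools, 217 and 250 with GA, 81.3 and 78.1 in the NH-JS2 pools, and 74.8 and 79.7 there with GA. The lines did not overlap, and the libraries with and without GA overlapped within each line. The remaining FLX unigene was not called. In contrast, 9 of 13 unigenes of SUF4, another partner of FRIGIDA, were called higher, at 0.43 to 0.59 without GA and 0.38 to 0.53 with GA, where DESeq2 called 8 and 5. The median over the list was 0.11 without GA and 0.08 with GA.

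Of the genes that silence FLC during vernalization, 51 unigenes of 12 loci were tested, and 12 were called higher and 0 lower in NH-JS2 without GA, and 9 higher and 3 lower with GA. This was 23.5% of the list in each comparison, below the 30.2% and 28.7% of all unigenes called. Without GA, 3 were lower at an unadjusted p under 0.05 by edgeR, and DESeq2 called 6 higher and 0 lower in each comparison. VAL2, which recruits Polycomb silencing to FLC together with VAL1, had 4 of 5 unigenes called higher, at 1.05 to 1.17 without GA and 1.33 to 1.47 with GA. Its unigene TBIU001131 stood at 349 and 404 scaled counts in the NH-JS1 pools, 480 and 377 with GA, 903 and 792 in the NH-JS2 pools, and 1142 and 1225 there with GA, with every NH-JS2 library above every NH-JS1 library. The remaining VAL2 unigene was not called, at -0.82 without GA and 0.19 with GA. VAL1 had 5 of 10 unigenes called higher without GA and 2 with GA, and 0 in either by DESeq2. The 3 lower unigenes with GA all matched VEL1, a relative of VIN3, and had -0.61 to -0.57, and DESeq2 called none of them. Of the 8 VEL1 unigenes, however, 2 were called higher without GA (0.39 and 0.47) and 1 with GA (0.53). DESeq2 called 1 VEL1 unigene higher and 0 lower in each comparison. The list had medians of 0.14 and 0.17.

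Of 40 unigenes of 9 loci of the autonomous pathway, 2 were called higher and 2 lower without GA, and 1 and 1 with GA. These were 10% and 5% of the list, beside 30.2% and 28.7% of all unigenes. FPA, an RNA-binding protein that lowers FLC, had 1 of 4 unigenes called (TBIU045491), higher in both comparisons at 0.75 ± 0.12. TBIU045491 stood at 328 and 369 scaled counts in the NH-JS1 pools, 306 and 312 with GA, 539 and 633 in the NH-JS2 pools, and 545 and 493 there with GA. The other FPA unigenes were not called. They ranged from -0.04 (TBIU003164) to 0.35 (TBIU045490) without GA, and from -0.005 (TBIU003165) to 0.55 (TBIU045490) with GA. The calls of LDL1 (-0.37), FLD (0.36) and the FVE unigene TBIU031707 (-0.41) without GA were lost with DESeq2, with adjusted p-values of 0.126, 0.0690 and 0.289. With GA a different FVE unigene was called, TBIU003494 (-0.35), and this call was also lost with DESeq2, at 0.125. Each of these 4 calls was lost as well when only the groups compared were fitted and when some single libraries were left out.

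The last list held SVP, FT, TSF, SOC1, FD, SPL15 and the further MADS genes AGL19 and AGL24. More of its unigenes were called higher than lower in NH-JS2. Of 26 unigenes of 7 loci (TSF had 0), 11 were called higher and 0 lower without GA, where 0 were lower at an unadjusted p under 0.05 by edgeR and 0 by DESeq2. With GA 14 were higher and 2 lower, the lower ones both of FD, which acts with FT, at -0.94 and -0.93. DESeq2 called 12 higher and 0 lower with GA, so both FD calls were lost. The shares called higher were 42.3% and 53.8%, beside 15.4% and 14.4% of all unigenes. These shares cover the whole list and not only the genes that FLC represses. Of the higher calls, SOC1 gave 2 and FT 1 in each comparison. AGL19 gave 4 without GA, and AGL19 and AGL24 gave 4 each with GA. SOC1, a floral promoter that FLC represses, stood at 248 and 304 scaled counts in the NH-JS1 pools, 346 and 272 with GA, 2397 and 1461 in the NH-JS2 pools, and 2281 and 3113 there with GA for TBIU065173. The lines did not overlap, and the log2 fold change was 2.81 ± 0.27 without GA and 3.12 ± 0.27 with GA (adjusted p = 6.13e-05 and 3.37e-05, edgeR). AGL19, a MADS gene that promotes flowering, had all 4 unigenes called higher in both comparisons, at 0.63 to 1.08 without GA and 0.61 to 1.18 with GA. FT, the mobile floral signal, stood at 1.67 and 2.74 scaled counts in the NH-JS1 pools, 2.00 and 0.99 with GA, 20.6 and 16.4 in the NH-JS2 pools, and 61.5 and 120 there with GA (TBIU006696). It was called higher in NH-JS2 without and with GA (adjusted p = 0.00580 and 5.32e-05, edgeR), and no fold is given because its NH-JS1 counts were near the lowest count in the table, 1. The GA comparison of FT within NH-JS2 had an adjusted p of 0.106 by edgeR. SVP, the partner of FLC, had 4 of 4 unigenes called higher without GA, at 0.57 to 0.65, and 3 of 4 with GA.

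For GA in either line, for GA averaged over the lines and for the difference between the lines, 0 of the 186 unigenes tested in these 4 lists were called by edgeR. At an unadjusted p under 0.05, 1 was higher and 5 lower for GA in NH-JS1, 6 higher and 9 lower for GA in NH-JS2, 6 higher and 10 lower averaged over the lines, and 3 higher and 2 lower for the difference. These were 3.23%, 8.06%, 8.60% and 2.69% of the 186, beside 7.98%, 8.77%, 12% and 4.22% of all unigenes. DESeq2 called 0 in each of these comparisons except GA in NH-JS2, where it called FT (TBIU006696, adjusted p = 0.0229, DESeq2). Several unigenes of 1 gene in these lists are numbered consecutively and may share reads, so the counts above are of unigenes and not of independent genes.

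**Figure D4:**
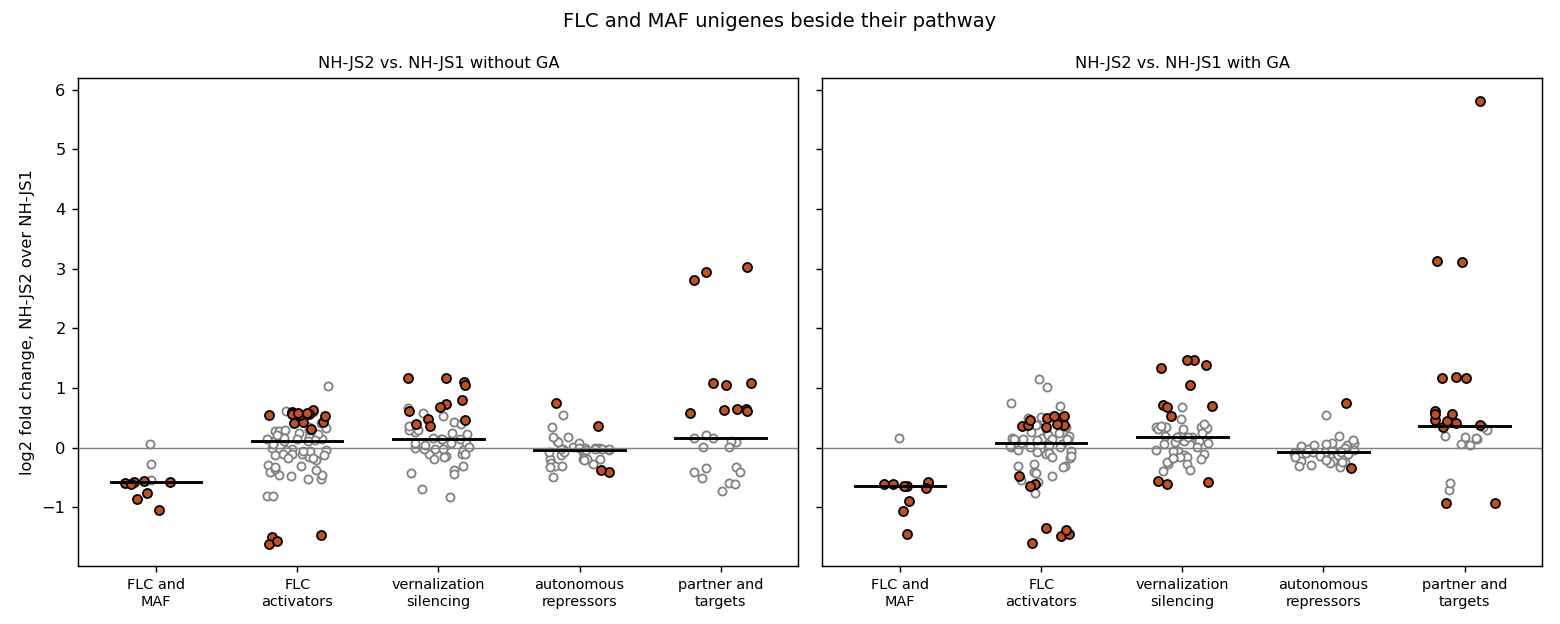
Log2 fold change of NH-JS2 over NH-JS1 (vertical axis) for the FLC and MAF unigenes and for the unigenes of 4 pathway lists, without GA (left) and with GA (right). Filled points had an adjusted p of at most 0.05 and bars are medians. The FLC and MAF medians are -0.58 and -0.64. Those of the list marked partner and targets, which also holds AGL19 and AGL24, are 0.16 and 0.36.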

How the data were processed

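RNA-seq was run on 8 shoot libraries of radish, 2 per group. After trimming, the authors aligned reads to a set of radish unigenes using Bowtie2 2.1.0 and deposited raw counts per unigene, the lowest of which is 1. TopHat is named as well in the submitters' processing notes, and no strand setting is given in the sources used here. The deposited annotation gives the best Arabidopsis locus and the percent identity of the best protein match, without coordinates. The table also holds 8 columns of normalized counts and the authors' log2 fold changes, which were not used.

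In R 4.3.3, edgeR 4.0.16 was used with its filter on low counts and TMM scaling (factors 0.886 to 1.043), with 1 mean per group over all 8 libraries. Quasi-likelihood tests were made for 6 comparisons (GA within each line and averaged, its difference between lines, and the lines with and without GA), with Benjamini-Hochberg adjustment over 65934 unigenes. Log2 fold changes are given with an SE, and scaled counts are counts at the geometric mean of the effective library sizes. This SE was taken as the absolute log2 fold change divided by the square root of the quasi-likelihood F statistic. Correlations used log2 CPM with a prior count of 2.

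All members are named. Pathway unigenes are named if called, at most 4 per list and comparison by smallest p. SUF4, VAL1, VEL1, SVP, FD, SPL15 and AGL24 are named outside this rule, after their values were seen, as is the range over all AGL19 unigenes. For likeness, the 5 matched unigenes with the highest r were taken for the FLC and the MAF unigene with the highest mean count. Members and lists were chosen with earlier results of these data known.

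Alternatives were DESeq2 1.42.0, no filter, other size factors, a fit of the compared groups alone, a block for the replicate number, 1 subtracted from every count, counts summed per locus, a stricter fold threshold and each library left out. Counting near-identical unigenes once, and DESeq2 calls per pathway gene, were added after the data were seen. The tests were also tried on simulated data in which every unigene had the same dispersion, unlike the real data, and no result above rests on that trial.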

Additional observations from a re-analysis of the deposited data

How the results depend on the processing

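For GA in either line, for GA averaged over the lines and for the difference between lines, 0 members were called under every alternative tried. In NH-JS2 vs. NH-JS1 the number of members called was 8 without GA and 10 with GA. With the 5 near-identical unigenes counted as 1 it was 4 and 6, and with counts summed per locus 2 and 2 loci, because fewer features were counted. Leaving out each library gave 6 to 8 members without GA and 6 to 10 with GA. Member DEGs numbered 1 without GA, and 0 at a log2 threshold of 1, 2 with DESeq2, 3 without the filter, 0 with only the groups compared and 0 to 5 with a library left out. With GA they numbered 4, and 0 at a log2 threshold of 1 and 0 to 5 with a library left out. Of all unigenes, those called for GA in NH-JS1 numbered 54 (155 with DESeq2, and 12 to 142 with a library left out), for GA in NH-JS2 42 (204 with DESeq2, 20 with only the groups compared, 25 to 310 with a library left out), for GA averaged over the lines 100 (482 with DESeq2, 35 to 521 with a library left out), for the difference 39 (63 with DESeq2, 22 to 56 with a library left out) and for the lines without GA 19923 (13224 to 19814 with a library left out).

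Some uncalled values changed sign, and the cause was not tested. With 1 subtracted from every count, TBIU004737 had 0.0018 for GA in NH-JS1. With counts summed per locus, TBIU069214 had -0.29 for GA in NH-JS2, since it then takes the value of all FLC unigenes. With the replicate number as a block, TBIU004737 had 0.0058 for GA in NH-JS1. The other sign changes came with a library left out. For GA in NH-JS1 the values then ranged from -0.14 to 0.14 for TBIU004737, from -0.082 to 0.91 for TBIU060196, from -0.15 to 0.0072 for TBIU069214 and from -0.11 to 0.51 for TBIU059941. For GA in NH-JS2 they ranged from -0.15 to 0.43 for TBIU069214, from -0.81 to 0.41 for TBIU038028 and from -0.50 to 0.086 for TBIU059941. Between the lines without GA they ranged from -0.74 to 0.48 for TBIU038028 and from -0.95 to 0.038 for TBIU060196, and with GA from -0.14 to 0.56 for TBIU038028. With a library left out, 1 arm has 1 library, which is assumed to vary like the others.

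The replicate numbers did not pair the samples: deviations of same-numbered libraries correlated at -0.08 to 0.12 between groups. With the replicate number as a block, 8 and 10 members were called between the lines and 0 for GA, and the FVE unigenes named were no longer called. The 2 pools per group limit every test, and MAF3 was limited by its counts.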
